A study of Homo sapiens with 12 samples.

Results

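YTHDF1 was mapped on chromatin by ChIP-seq (chromatin immunoprecipitation followed by sequencing) in the H1 line, which was derived from a human embryo and is an established line of pluripotent stem cells. The account covers every YTHDF1 peak that the authors deposited for wild-type H1 cells, which had received no treatment, and for YTHDF1 KD H1 cells, which had received an shRNA against YTHDF1. Both were cultured in mTESR1 medium. Each condition had 2 YTHDF1 and 2 input libraries, and the authors merged the 2 YTHDF1 replicates into 1 peak list. The wild-type list held 44498 peaks and the knockdown list held 226, together 44724 of the 117365 regions in the 4 deposited lists of the series. A peak was called shared where it overlapped a peak of the other list by at least 1 bp, and otherwise wild-type only or knockdown only. Of the knockdown peaks, 72 were shared and 154 were knockdown only. Of the wild-type peaks, 72 were shared and 44426 were wild-type only. Because each condition is 1 merged list, the spread of replicates is not known and the conditions were not tested against each other. Shares carry exact Clopper-Pearson 95% intervals, which cover counting error only. Sequencing depth and the share of YTHDF1 left after the knockdown were unknown. The labels name 1 shRNA-treated line and do not say whether it is a clone.

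YTHDF1 belongs to the YTH family, whose members bind N6-methyladenosine (m6A) in RNA, and it is best known in the cytoplasm, where it promotes translation of methylated transcripts. In a ChIP the antibody is the only link between a peak and the protein. A knockdown sample therefore serves as a specificity control. Sites that depend on the protein should lose signal, and sites bound by the antibody for other reasons should not. Here the wild-type cells had received no control shRNA. Effects of the shRNA treatment itself therefore cannot be told apart from those of losing YTHDF1. The gene that encodes YTHDF1 lies at chr20:63195429-63216131 (hg38). Within 2 kb of it the wild-type list had 2 weak peaks, of 2.70-fold and 2.72-fold enrichment as given by the authors, and the knockdown list had none. A peak at the gene says nothing about the level of the protein.

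The sequences below are shown because they hold the motif whose share in start windows, of 11 motifs searched, differed most in percentage points between knockdown peaks and the stronger wild-type-only peaks, those with a −log10 q of 4 or more. They come from the RefSeq promoter table (GRCh38.p14, the assembly of hg38), and each lies upstream of a transcript start and under a knockdown peak. They were picked after the matches had been seen. The X-box is an inverted repeat bound by RFX transcription factors, best known at genes of the cilium. Its 2 arms read GTTGCC or a variant of it, and, on the other side of a short spacer, the complement GGCAAC. The first set holds paired arms, GTTGCC, any 2 bases and GGNAAC, searched on both strands, and capitals mark the whole match.
SYT5 (chr19:55179425-55179478, minus strand): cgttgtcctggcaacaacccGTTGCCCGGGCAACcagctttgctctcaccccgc
WDR54 (chr2:74421650-74421703, plus strand): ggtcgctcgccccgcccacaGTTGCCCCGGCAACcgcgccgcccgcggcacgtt
SPAG16-DT (chr2:213284260-213284313, minus strand): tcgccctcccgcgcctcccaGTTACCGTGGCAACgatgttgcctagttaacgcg
NRSN2 (chr20:347833-347886, plus strand): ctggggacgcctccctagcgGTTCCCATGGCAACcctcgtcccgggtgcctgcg
CINP (chr14:102362995-102363048, minus strand): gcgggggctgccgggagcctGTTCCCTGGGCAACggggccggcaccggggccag
GPR135 (chr14:59465381-59465429, minus strand): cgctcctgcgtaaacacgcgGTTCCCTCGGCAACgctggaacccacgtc

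The next set holds single arms, GTTGCC or its complement GGCAAC, in capitals. CFAP144, RSPH14 and DYNC2H1 encode proteins of the cilium or its motor machinery, and JUND encodes an AP-1 transcription factor.
CFAP144 (chr1:43147829-43147903, plus strand): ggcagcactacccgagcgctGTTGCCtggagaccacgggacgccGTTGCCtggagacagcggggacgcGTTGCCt
RSPH14 (chr22:23141991-23142046, minus strand): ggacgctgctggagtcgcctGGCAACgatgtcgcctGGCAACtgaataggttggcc
ACAP2 (chr3:195443145-195443209, minus strand): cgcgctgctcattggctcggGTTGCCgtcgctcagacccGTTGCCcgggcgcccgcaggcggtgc
LRRC74B (chr22:21045766-21045829, plus strand): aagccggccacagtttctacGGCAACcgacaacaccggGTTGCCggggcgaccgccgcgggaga
JUND (chr19:18281743-18281788, minus strand): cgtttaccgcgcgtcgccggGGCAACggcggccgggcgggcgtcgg
DYNC2H1 (chr11:103109355-103109400, plus strand): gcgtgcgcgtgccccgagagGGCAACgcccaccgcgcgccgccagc
AP1S1 (chr7:101154280-101154325, plus strand): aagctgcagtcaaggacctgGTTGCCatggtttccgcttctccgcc

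The EGR1 promoter is shown for another element, the CArG box of the serum response element, which is bound by SRF and drives immediate early genes. Capitals mark the form of it that was searched on both strands, CCATA followed directly by TTAGG. The match was not at the summit: it began at -105 bp from the start, and the knockdown summit lay at -368 bp.
EGR1 (chr5:138465354-138465399, plus strand): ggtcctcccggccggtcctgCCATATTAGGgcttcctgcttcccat

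Of the 226 knockdown peaks, 72 (31.9%, 25.8 to 38.4) lay over a wild-type peak, and these were 0.162% of the wild-type list. The pairing was one to one. Within a pair the positions were close: the median overlap was 408 bp, and 69 of 72 pairs overlapped by at least 50% of the shorter peak. The summits, the points of highest signal, were a median of 49 bp apart (quartiles 25.5 and 118 bp), and 38 of 72 pairs had them within 50 bp. The wild-type peak was the wider of the pair in 55 of 72. The knockdown-only peaks were not near misses. Only 4 of 154 had a wild-type peak within 1 kb and 40 (26%) within 10 kb, and the median distance to the nearest wild-type peak was 19.97 kb.

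The strength of a knockdown peak went with its chance of lying on a wild-type peak. Of the 65 knockdown peaks with a −log10 q of 4 to 5, 6 (9.23%, 3.46 to 19.02) were shared. Of the 21 peaks with a −log10 q of 20 or more, 15 (71.4%, 47.8 to 88.7) were shared. The classes between them rose in steps, from 23.9% to 32.1% to 56.1%. The same held within the wild-type list. Of its 27793 peaks with a −log10 q under 2, 15 (0.0540%) lay on a knockdown peak, against 23 of 1009 (2.28%) with values from 4 to 8 and 15 of 53 (28.3%, 16.8 to 42.3) with 8 or more.

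**Figure D1:**
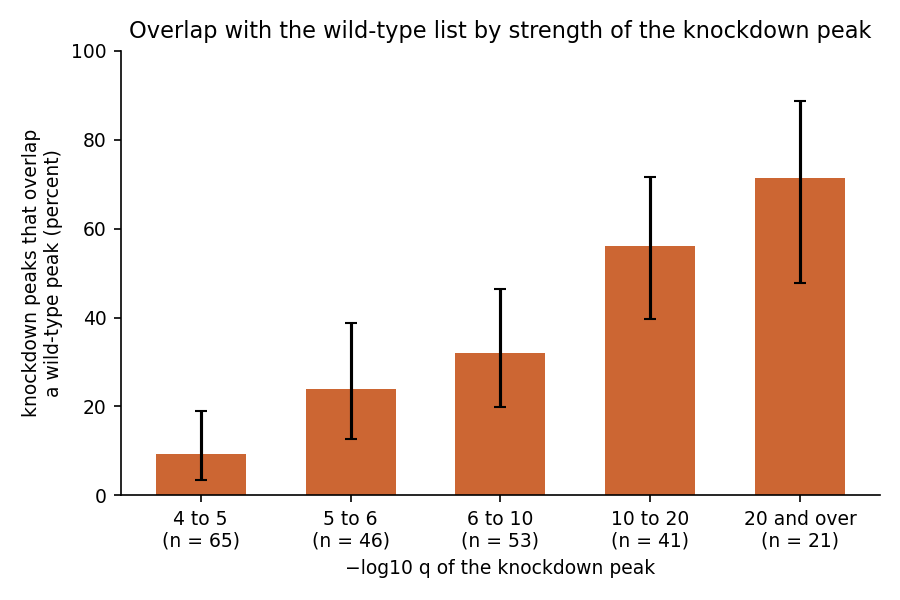
Percent of knockdown peaks that overlap a wild-type peak (vertical axis), by the −log10 q of the knockdown peak (horizontal axis), with exact 95% binomial intervals as error bars. The share goes from 9.23% in the weakest class to 71.4% in the strongest.

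Most of the wild-type list had a −log10 q under 4, where the knockdown list held no peak. The wild-type list went down to a −log10 q of 1.502 and the knockdown list to 4.01, so the lists did not end at the same value. At a common minimum of 4, 1062 wild-type peaks and 226 knockdown peaks were left, and 38 were shared. At 6 the numbers were 166 and 115. At 8 the order turned over, with 53 wild-type and 83 knockdown peaks, and at 20 there were 9 and 21. Shared peaks fell to 11 at a minimum of 8 and to 1, at EGR1, from 15 upwards. The many weak wild-type peaks also carried few distinct values. The 44498 wild-type peaks had 939 distinct pairs of fold and q, and 6828 of them (15.3%) had the same pair, 2.81-fold with a −log10 q of 1.58. The number of reads behind a peak is not in the lists, so the part of depth and of the authors' threshold in these counts was not tested.

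**Figure D2:**
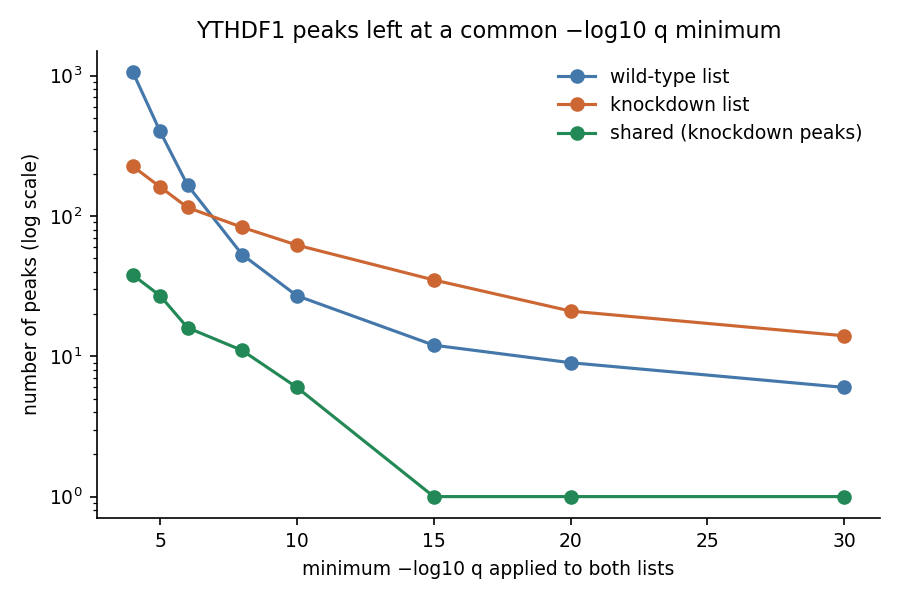
Number of YTHDF1 peaks left (vertical log axis) when the same minimum −log10 q (horizontal axis) is applied to the wild-type list and the knockdown list, and the number of knockdown peaks still shared. The wild-type list is the longer at 4, 5 and 6 and the shorter from 8 upwards.

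The authors' fold enrichment and −log10 q describe a peak within its own list. The counts at common minima above therefore do not show which cells had more strong sites. From here on, values of the 2 lists are given side by side without comparing them. The strongest shared peak by p lay in EEF1A1 (chr6:73520010-73521319), the gene of the translation elongation factor eEF1A1. It was 1310 bp wide, with its summit 563 bp downstream of the start. Its deposited values were 13.9-fold and −log10 q 193 in the knockdown list, and 2.94-fold and 4.55 in the wild-type list. The EGR1 peak (chr5:138464799-138465591) had its summit at -368 bp from the start, upstream of the gene of this immediate early transcription factor. It was listed at 19.9-fold and −log10 q 173 in the knockdown cells and at 7.49-fold and 49.98 in wild-type cells, with summits 28 bp apart. No other knockdown peak had a −log10 q above 100, and these were the highest folds of the list as well.

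The other strong shared peaks were 5.74-fold to 8.02-fold in the knockdown list. They lay at ZSWIM6, CFAP144, LOC124904071, JUND, LINC01220, FBXO46, CNIH2 and DMWD, with others 3.07 kb from EPHX3 and 0.034 kb from MAP3K14. CFAP144 had 7.96-fold in the knockdown list and 4.27-fold in the wild-type list, with its summit 31 bp upstream of the start. JUND had 7.50-fold and 2.93-fold, and its 2 summits were 212 bp apart. Outside the strongest 12 and picked after the values were seen, shared peaks lay at KMT2A, which encodes a histone H3K4 methyltransferase (4.60-fold and 4.87-fold), and at ACAP2 (4.38-fold and 8.23-fold).

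Among knockdown-only peaks with a gene, the highest fold was at CFAP54, a gene of the cilium's central apparatus, at 8.16-fold with −log10 q 28.8 (chr12:96489226-96489810). TNFSF9, which encodes the ligand of the T-cell receptor 4-1BB, had 2 knockdown-only peaks, of 6.85-fold and 3.80-fold. CCDC13 (5.93-fold), RFX1 (4.83-fold), LRRC74B (5.82-fold), SDCBP2 (4.28-fold), SYTL5 (6.41-fold) and C1orf159, 0.105 kb away (5.12-fold), were the other genes among the 12 strongest. The wild-type list, which reached down to a −log10 q of 1.502, had no peak over any of these. ACTB, the beta-actin gene and named after its value was seen, had a knockdown-only peak of 4.39-fold. It lay across the border of the gene's RefSeq span that has the higher coordinate, 5530601.

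**Figure D3:**
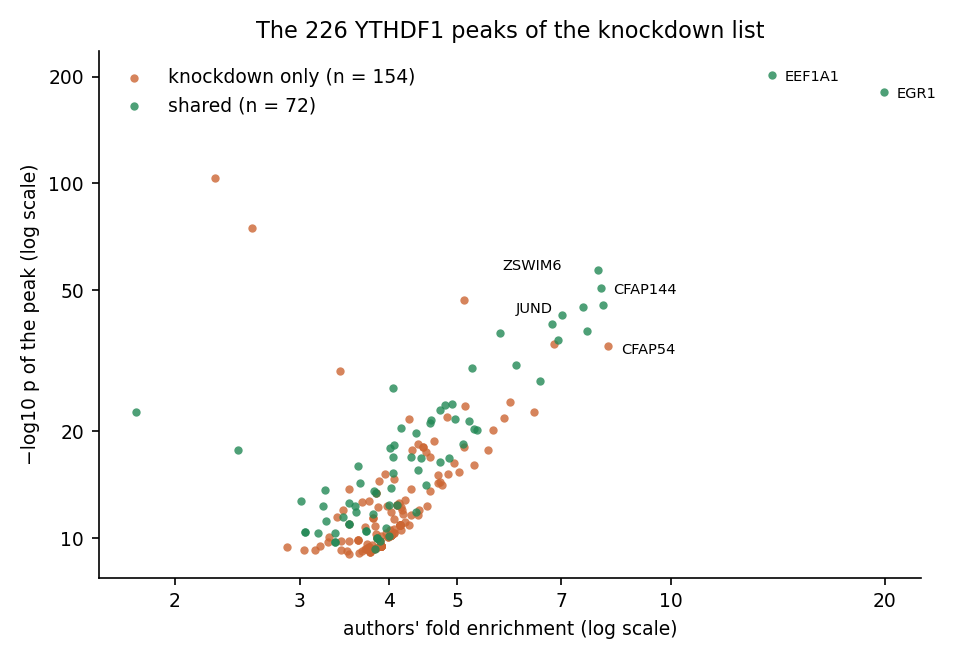
Authors' fold enrichment (horizontal log axis) against the −log10 p (vertical log axis) for each of the 226 knockdown peaks, shared in green and knockdown only in orange. EEF1A1 and EGR1 stand apart at 13.9-fold and 19.9-fold, and a few points at under 4-fold have a high −log10 p.

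Widths of the 2 knockdown classes were close in median and range, and folds were close at the median and reached higher in shared peaks. Shared knockdown peaks were 450.5 bp wide at the median (251 to 1310) and knockdown-only peaks 444.5 bp (252 to 1271). The median fold was 4.06 (1.76 to 19.9) for shared and 3.96 (2.28 to 8.16) for knockdown-only peaks. A fold under 5 was found for 75% of the former and 92.2% of the latter. The summit lay near the middle in both, at 49.3% and 49.2% of the width. In the wild-type list, shared peaks had a median of 723.5 bp and 3.51-fold. Wild-type-only peaks had 407 bp and 2.89-fold, or 551 bp and 3.84-fold for the 1024 with a −log10 q of 4 or more.

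Shared peaks sat at transcript starts more often than the other classes. The start table lists no start on chromosome 8 and has windows for 27305 genes, so distances are to its nearest listed start. The summit lay within 250 bp of a start for 34 of 71 shared knockdown peaks (47.9%, 35.9 to 60.1) and for 27 of 148 knockdown-only peaks (18.2%, 12.4 to 25.4). It did so for 4.86% of all wild-type-only peaks and for 20.3% (17.8 to 23) of those with a −log10 q of 4 or more. The median distance was 278 bp for shared, 20.8 kb for knockdown-only and 13.6 kb for the stronger wild-type-only peaks. By the ends of coding genes, 56.9% of shared knockdown peaks had their midpoint within 2 kb of an end, 15.3% further inside a gene and 27.8% outside. For knockdown-only peaks the shares were 31.8%, 31.2% and 37.0%, close to the 33.6%, 32.9% and 33.5% of the stronger wild-type-only peaks.

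**Figure D4:**
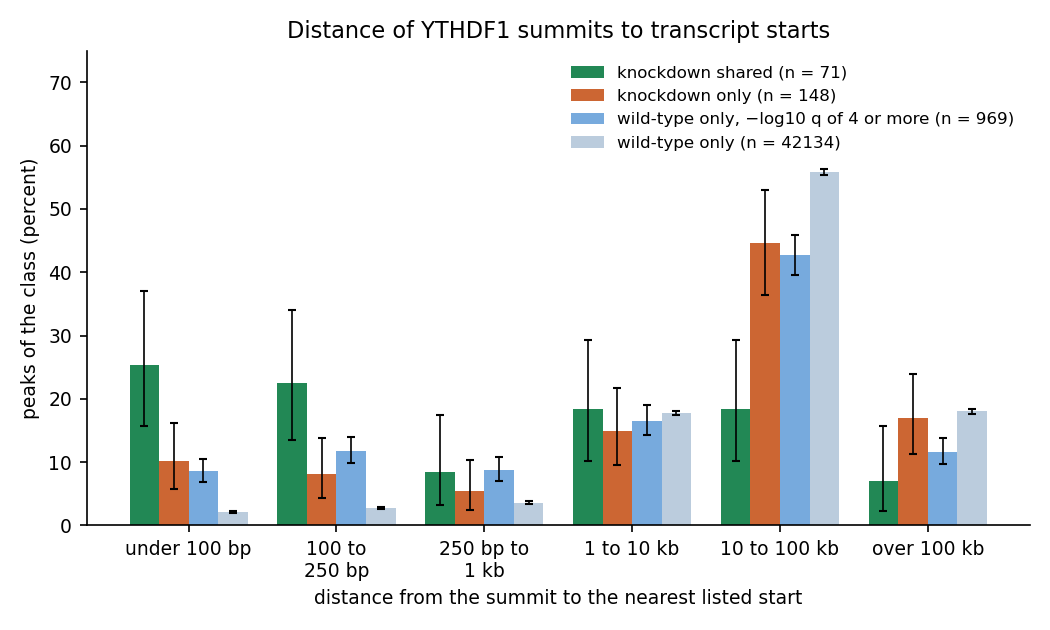
Percent of peaks (vertical axis) by distance from the summit to the nearest listed transcript start (horizontal axis), for shared and knockdown-only peaks of the knockdown list, all wild-type-only peaks, and those of them with a −log10 q of 4 or more. Error bars are exact 95% binomial intervals. Shared peaks reach 25.4% under 100 bp, and the wild-type-only peaks crowd at 10 to 100 kb.

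Among the chromosomes, the gene-dense chromosome 19 held the most knockdown peaks, 32 of 226 (14.2%, 9.89 to 19.4), of which 17 were shared. It held 3.56% of wild-type peaks, 7.63% of those with a −log10 q of 4 or more, and 7.10% of coding genes. Chromosome X held 93 wild-type peaks (0.209%) and 1 knockdown peak, beside 4.27% of coding genes. The wild-type RNF2 list also had a low share there, 421 peaks (1.44%), and the reason was not tested. Within 100 kb of each other, 18 knockdown peaks formed 8 groups. Groups of shared peaks lay at FBXO46 and DMWD and at ZNF497 and ZNF584 on chromosome 19. Another joined LINC01220 and a peak 19.3 kb from FOS, a partner of JUND in AP-1.

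The X-box arm was the motif with the widest gap in percentage points between knockdown peaks and the stronger wild-type-only peaks. Start windows ran from 250 bp before to 50 bp after a start, and 71 of the 226 knockdown peaks overlapped at least 1, in all 98 windows. GTTGCC, on either strand, was in 12.2% of all 35116 windows. It was in 30 of 50 windows under shared peaks (60%, 45.2 to 73.6) and in 25 of 48 under knockdown-only peaks (52.1%, 37.2 to 66.7). Under wild-type-only peaks it was in 60 of 367 windows at a −log10 q of 4 or more (16.3%, 12.7 to 20.5), in 14.7% at 2 to 4 and in 13.2% below 2. Windows with no YTHDF1 peak had it in 11.8%. Among the windows under knockdown peaks without the arm were those of EEF1A1 and EGR1, the strongest peaks of that list. Those of ZSWIM6, KLF2, KLF4, KMT2A, RFX3 and TRAF3IP1 also held no arm. Neighbouring starts share sequence, so peaks were also counted once: 44 of 71 knockdown peaks (62.0%, 49.7 to 73.2) and 46 of 258 wild-type-only peaks of −log10 q 4 or more (17.8%, 13.4 to 23.1) had the arm in a window they overlapped. These are descriptions of the lists, and no test was made.

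The arm was close to the summit. Over the 44 knockdown peaks that had one, the nearest arm was a median of 27.5 bp from the summit, and 32 (72.7%, 57.2 to 85.0) had it within 50 bp. Over the 46 wild-type-only peaks the median was 143 bp, and 8 (17.4%, 7.82 to 31.4) had it within 50 bp. A wider peak can touch a window further from its summit. The stronger wild-type-only peaks were 551 bp wide at the median and all knockdown peaks 445.5 bp. The part of width in these distances was not tested. In the sequences shown above, the nearest printed arm was 0.5 bp from the summit at ACAP2 and AP1S1, 2.5 bp at CFAP144 and RSPH14, 4.5 bp at LRRC74B and 10.5 bp at JUND. At DYNC2H1 the printed arm was 78.5 bp away, and another arm in its window, not printed, was nearer. In windows that held the summit itself, the arm was in 26 of 37 for shared peaks (70.3%) and 22 of 28 for knockdown-only peaks (78.6%), and in 15.6% for the stronger wild-type-only peaks.

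Paired arms were rarer and again had a higher share under knockdown peaks. GTTGCC followed after 2 bases by GGNAAC, on either strand, was in 0.362% of all windows (127 of 35116), in 10 of 98 windows under knockdown peaks (10.2%, 5.003 to 17.97) and in 2 of 367 under the stronger wild-type-only peaks (0.545%). Under weaker wild-type-only peaks it was in 0.501% at a −log10 q of 2 to 4 and in 0.787% below 2. Unlike the single arm, it thus did not rise with the strength of these peaks. The 10 knockdown windows belonged to SYT5, NRSN2, CINP, GPR135, TTC23L, the shared promoter of C2orf81 and WDR54, and that of SPAG16 and SPAG16-DT. With 0, 1, 3, 4, 5 or 6 bases between the arms, none of the 98 windows had a match. Such matches were rare everywhere. The most frequent, with 1 base, was in 49 of all 35116 windows, a share at which 98 windows would hold about none. The centre of the pair was 11.5 bp from the summit at WDR54, 13.5 bp at SYT5 and 10.5 bp at GPR135, 35.5 bp at TTC23L, 62.5 bp at SPAG16-DT, 67.5 bp at NRSN2 and 92.5 bp at CINP.

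**Figure D5:**
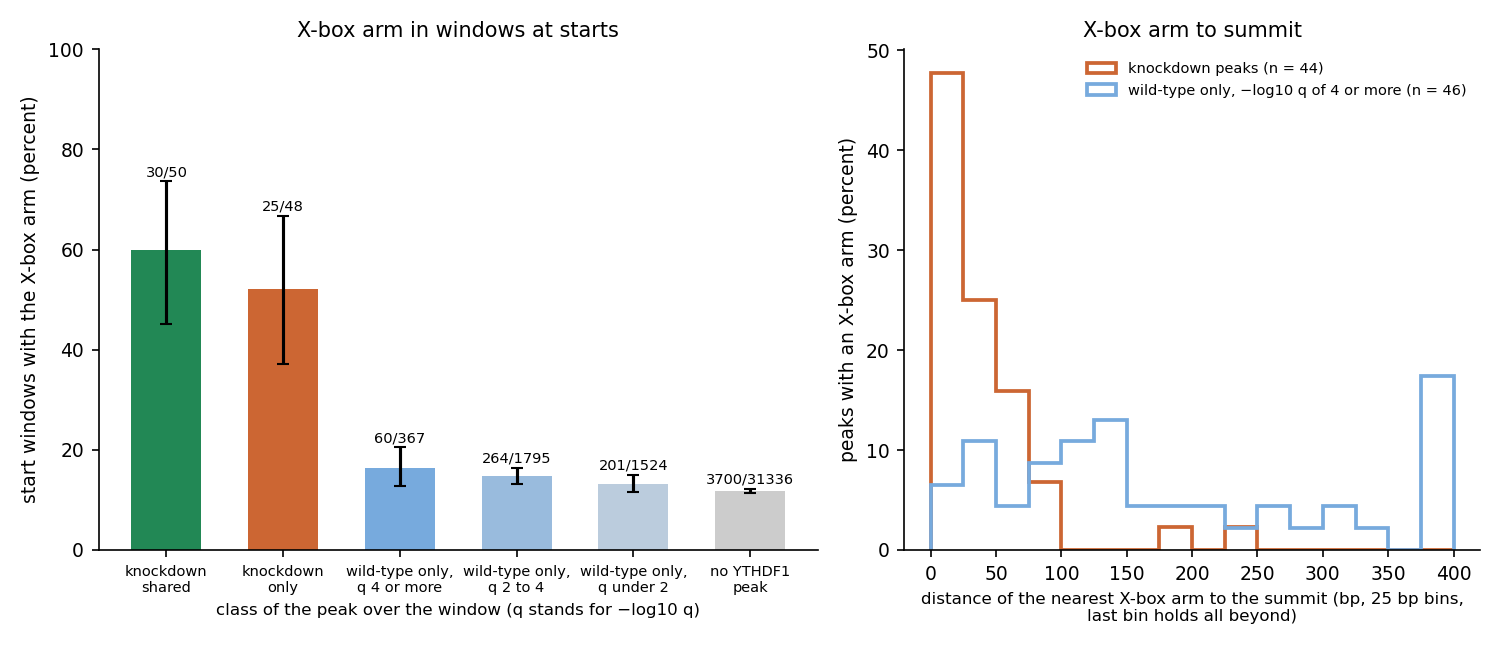
Left, percent of start windows (vertical axis) that hold the X-box arm, by the class of the YTHDF1 peak over the window, with exact 95% binomial intervals and the counts above them. Right, distance from the summit to the nearest arm (horizontal axis, bp) as a percent of the peaks that have one; 72.7% of the knockdown peaks and 17.4% of the wild-type-only peaks lie within 50 bp.

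Base composition differed little between the peak classes. The median GC content of the windows was 68.5% under knockdown peaks, 69.3% under the stronger wild-type-only peaks and 58.7% over all windows. In windows of 60 to 70% GC the arm was in 30 of 50 under knockdown peaks (60%), in 15.8% under the stronger wild-type-only peaks and in 13.8% of all. In windows of 70% GC or more the shares were 51.4%, 14.4% and 10.4%. No other single motif searched showed a gap of this size. The GC box GGGGCGGGG was in 35.7% of windows under knockdown peaks and 33.5% under the stronger wild-type-only peaks, against 15.7% of all. The ETS site CCGGAAG was in 16.3% and 16.6%, against 10.3%. The CCAAT box, searched as ATTGG, was in 23.5% and 36.2%, against 34.6%. The AP-1 site TGANTCA was in 1 of 98 windows, at a background of 7.71%, and the EGR site GCGTGGGCG in 0 of 98, at 0.795%. This form of the CArG box was in 12 of all 35116 windows (0.0342%) and in 2 of 98 under knockdown peaks, those of EGR1 and, named after its match was seen, FZR1. The cyclic AMP response element TGACGTCA was in 4 of 98 (background 1.85%), the E-box CACGTG in 7 (7.26%) and the NRF1 site, GCGCA followed directly by TGCGC, in 1 (1.24%). Such matches are letters in a window and do not show binding of a factor.

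Genes were then counted by list. A knockdown peak lay within 2 kb of an end of 106 of 19866 coding genes (0.534%), 53 of them by shared and 53 by knockdown-only peaks (0.267% each). For the wild-type list the share was 29.3%, or 2.43% at a −log10 q of 4 or more. Immediate early genes, which respond to growth factors within minutes, had a knockdown peak at 4 of 31 (12.9%). They were EGR1, JUND, KLF4 (3.52-fold, shared) and KLF2 (3.43-fold, knockdown only). In the wild-type list 21 of the 31 had a peak and 7 had one of −log10 q 4 or more, EGR1, EGR4, FOS, IER2, JUNB, KLF4 and SRF. EGR1 and KLF4 were thus in both sets.

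Genes of the cilium and flagellum were listed after names among the peaks had been seen, so their count is a description. Of the 150, 8 had a knockdown peak at an end (5.33%), and 11 had a wild-type peak of −log10 q 4 or more (7.33%). Shared peaks lay at FOXJ1, the transcription factor that switches on motile cilium genes (4.95-fold in the knockdown list and 4.03-fold in the wild-type list), at RSPH1 of the radial spoke (5.27-fold and 5.19-fold) and at TRAF3IP1 of intraflagellar transport (3.96-fold and 4.07-fold). Knockdown-only peaks of the list included those at CFAP54, DNAI7 (3.84-fold), SPAG16 of the central apparatus (5.03-fold) and DYNC2H1, the heavy chain of the intraflagellar dynein motor (3.88-fold). RefSeq spans that reach beyond the main start leave out CFAP58 (4.07-fold), CFAP144 and RSPH14 (4.02-fold), whose summits lay 27, 31 and 15 bp upstream of a listed start. By start windows, 7 of 127 listed genes with a window had a knockdown peak (5.51%), against 0.436% of 15843 coding genes. A wild-type peak of −log10 q 4 or more lay over a window of 9 of the 127 (7.09%), against 1.81% of coding genes, and any wild-type peak over 32, against 16.3%.

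Of 8 genes of RFX factors, listed after the values were seen, 2 had a knockdown peak and 3 a wild-type peak, beside 0.534% and 29.3% of all coding genes. RFX1 and RFX3 (3.21-fold) had knockdown-only peaks with summits 36 and 111 bp downstream of a start. The RFX1 window held 1 arm, downstream of the start. In the wild-type list RFX2 had a peak of −log10 q 4 or more. Of 48 genes of centrioles and centrosomes, added likewise, 2 had a knockdown peak (4.17%, beside the same 0.534%), the knockdown-only peaks at CCDC13 and KIAA0753 (3.29-fold). Of 252 listed zinc finger genes on chromosome 19, 3 had a knockdown peak (1.19%, beside 0.534%), ZNF264, ZNF497 and ZNF584. The 0.534% is for all chromosomes, while chromosome 19 held 14.2% of knockdown peaks on 7.10% of coding genes. The share is therefore not read as an excess of these genes. At a −log10 q of 4 or more the wild-type list had a peak at 2.38% of them, beside 2.43%.

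Genes of the m6A and Polycomb machinery held few knockdown peaks. None of 21 writers, erasers and readers of m6A had one, while 8 had a wild-type peak and 1, the demethylase gene FTO, a wild-type peak of −log10 q 4 or more. Of 30 genes of Polycomb repressive complex 1 (PRC1) subunits, PHC2 had a knockdown-only peak (4.53-fold), and of 13 PRC2 genes none had a knockdown peak. HOX genes (0 of 39), pluripotency-associated genes (0 of 29), ribosomal protein genes (0 of 83) and replication-dependent histone genes (0 of 73) had no knockdown peak either. The wild-type list had peaks at 19 (48.7%), 11 (37.9%), 22 (26.5%) and 5 (6.85%) of these, beside 29.3% of all coding genes. At a −log10 q of 4 or more it had 1 in the HOX set, HOXB1, and 1 in the histone set, H1-10, beside 2.43%. At a knockdown background of 0.534% a list of these sizes is expected to hold few or none.

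In wild-type cells the PRC1 subunit RNF2 had a peak over 83.3% (72.7 to 91.1) of shared and 35.1% (27.6 to 43.2) of knockdown-only peaks, beside 12.6% of all wild-type-only peaks and 41.4% of the stronger ones. For H2AK119ub, the histone mark that PRC1 writes, the shares were 90.3%, 40.3%, 28.2% and 54.6%.

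Some gene-poor places gave strong p-values, most of them at low fold. Peaks beyond 100 kb of a coding gene were not particular to the knockdown list. They were 6.94% of shared and 18.2% of knockdown-only peaks, beside 18.4% of wild-type-only peaks and 13.2% of the stronger ones. The knockdown-only peak at chr16:34588105-34588356 had a −log10 p of 104 at 2.28-fold, with the nearest coding gene 198 kb away. The one at chr17:26881271-26881542 had 74.8 at 2.57-fold, 413 kb from a coding gene. Knockdown-only peaks at chr1:143246912-143247199 (3.41-fold) and chr1:143263424-143263719 (5.10-fold) lay 655 and 639 kb from one. This stretch was not particular to the knockdown list. Between them lay a shared peak at chr1:143254013-143254548 (3.59-fold in the knockdown list, 3.14-fold in the wild-type list). A wild-type-only peak lay there too, at chr1:143252962-143253244 (4.63-fold). The shared peak at chr17:25920093-25920343 had 1.76-fold in the knockdown list and 1.63-fold in the wild-type list, 1374 kb from a coding gene, with summits 8 bp apart. The shared peak on chromosome 1 was 536 bp wide. The other 5 knockdown peaks named here were 251 to 296 bp wide, near the lower limit of the list, and lay in gene-poor stretches. All 5, and the shared peak on chromosome 1, were without RNF2 and H2AK119ub. No repeat annotation was used here, and whether input signal is also high at these places was not tested.

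A stretch of the short arm of chromosome 21 that includes 45S ribosomal RNA genes had peaks of both lists. Between positions 8213031 and 8988815 the wild-type list had 14 peaks, of 2.54-fold to 29.0-fold, and 12 were wild-type only. The knockdown list had 2 there, both shared. The first lay 256 bp beyond RNA45SN2, a 45S pre-ribosomal RNA gene, by the wild-type peak, which was listed at 26.8-fold with −log10 q 548. The knockdown peak on it was listed at 2.45-fold with −log10 q 12.2. The second place, 541399 bp from the nearest rRNA gene by the knockdown peak, had 29.0-fold in the wild-type list and 3.85-fold in the knockdown list. The 3 peaks that overlapped RNA45SN2, of 4.21-fold to 17.4-fold, were wild-type only. No knockdown peak lay within 2 kb of any of 429 tRNA, 149 snRNA or 1193 snoRNA genes in the table. Of wild-type-only peaks 0.104%, 0.0270% and 0.227% did, shares at which a list of 226 would hold about none.

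The wild-type-only peak with the strongest p was at BMP4 (chr14:53952070-53953593), which encodes a bone morphogenetic protein. It was 1524 bp wide, listed at 74.7-fold with −log10 q 891, the highest fold of its list. Of the other 11 strongest, 7 lay in the same part of chromosome 21. The other 4 were at EGR4 (5.60-fold), a relative of EGR1, at SRF (5.47-fold), the factor that binds the CArG box, at ZNF787 (5.47-fold), and at RSPH14 and RAB36 (6.02-fold). The summit of this last peak lay at -3413 bp from the RSPH14 start, that is upstream of it. Over that start itself the wild-type and knockdown peaks were shared, at 5.19-fold and 4.02-fold.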

How the data were processed

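The data were the YTHDF1 peak lists of wild-type and knockdown H1 cells, each merged from 2 replicates by the authors, with the wild-type RNF2 and H2AK119ub lists beside them. The tools named in the submitters' processing notes are MACS2 2.1.0 and SICER 1.1, Bowtie2 2.2.5, Trimmomatic 0.35, Picard and SAMtools 1.3.1, with the build hg38. Their roles and settings, the caller of each list and its threshold are not given in the sources used here. Each YTHDF1 and RNF2 peak carries the authors' fold enrichment, −log10 p-value and −log10 q-value as deposited. The deposited score is 10 times the −log10 p, capped at 1000, and was replaced by the −log10 p. The lists hold no counts of reads.

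Overlaps, positions and shares were computed with Python 3.11.15, pandas 2.3.3, numpy 2.4.6 and scipy 1.17.1, and the overlap code was tested on simulated intervals. Coordinates are 1-based. Genes came from a RefSeq table of GRCh38.p14 (19866 coding genes after leaving out rows on other scaffolds), and starts and sequences from a RefSeq table of 35116 windows. No test was made, since each condition is 1 list.

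Named are the gene of YTHDF1, the genes at the 12 strongest peaks of each class by −log10 p, members of the lists with a knockdown peak within 2 kb of an end, and others where the text says so. Members of the lists that are named for a wild-type peak of −log10 q 4 or more (FOS, IER2, JUNB, RFX2, FTO, HOXB1 and H1-10) were named after their values were seen. A gene that this rule took is not reported here. The members and lists were chosen with earlier results of these data known, and the cilium, RFX, centriole and zinc finger lists and the motifs after names among the peaks had been seen. Alternatives were other overlaps, −log10 q minima, windows and gaps, and for the X-box arm other choices of windows and peaks.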

Additional observations from a re-analysis of the deposited data

How the results depend on the processing

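No paired analysis was possible because the replicates of each condition were merged into 1 list, and for the same reason no replicate could be left out. Of 62 alternatives, 44 stayed near the main value. The number of shared knockdown peaks, 72, was 38 at a −log10 q minimum of 4 in both lists, 11 at 8, 1 at 20 (added after seeing the data) and 47 when only the 50% of each list with the stronger p was kept. It was 69 to 76 under other overlap rules. Gene-end windows of 500 bp gave 44.4% for shared, 23.4% for knockdown-only and 6.37% for wild-type-only peaks. For wild-type-only peaks the share was 19.5% with 5000 bp, 12.7% by any base, and 33.6% at a −log10 q of 4 or more, where the median fold was 3.84. Groups of knockdown peaks numbered 2 with gaps up to 10 kb and 20 with 1 Mb. Peaks at rRNA genes numbered 0 by overlap alone, and at snRNA genes 2 within 10 kb. Coding genes with a knockdown peak numbered 169 by whole genes and 69 by start windows. The X-box arm share under knockdown-only peaks was 78.6% where the window held the summit. It was 47.7% to 50% with 1 start per gene, without the 12 strongest peaks or without cilium genes. Depth was unknown and limits what the absence of a peak can show.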
